A study of Mus musculus with 8 samples.

Results

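Genes of the TGF-β and activin system were followed through bulk RNA-seq of sorted mouse skin stem cells. The 10 genes were chosen by symbol from a fixed list, namely the ligand genes Tgfb1, Tgfb2, Tgfb3, Inhba and Inhbb, the latent TGF-β binding protein genes Ltbp1, Ltbp3 and Ltbp4, and the follistatin family genes Fst and Fstl1. All 10 of them were found among the 23861 genes of the hair follicle stem cell (HFSC) table and 9 among the 16231 genes of the epidermal stem cell (EpdSC) table, where Fstl1 was not analysed here. The study asked how the homeobox factor Msx2 acts on these stem cells around hair shedding, with TGF-β signaling among its interests. HFSCs were sorted from dorsal skin as CD34+CD49f+Sca-1- cells and EpdSCs as CD34-CD49f+Sca-1+ cells, all from telogen skin. Each group held 2 libraries. The WT HFSC libraries came from mice of 2 months and the Msx2-KO HFSC libraries from mice of 6 months, so that genotype and age cannot be told apart in HFSCs. Both EpdSC groups came from mice of 6 months. Library names fell into separate series by genotype in both cell types. WT HFSC names began with YC and Msx2-KO HFSC names with Ch, and the EpdSC names, all with Ch, had separate number runs. What these series stand for is not stated, and genotype cannot be told apart from it in either cell type. The libraries labelled Msx2-KO are called KO-labelled here, since the counts do not check that label. The Msx2-KO mice were homozygous for a germline allele carrying a neomycin cassette inserted upstream of exon 2, so every tissue of the animal lacked the normal allele, and the WT mice are described in the methods as C57BL/6J animals matched by hair cycle. Nothing in the labels says whether the 2 libraries of a group came from separate animals, so that p-values measure only the spread between these libraries, which may be technical.

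TGF-β ligands are made as precursors whose propeptide stays bound to the mature dimer and keeps it latent. The latent TGF-β binding proteins (LTBPs) tether this complex to the extracellular matrix, from which integrins and proteases release the ligand. Activins, dimers of the inhibin β subunits encoded by Inhba and Inhbb, are not kept latent in this way and are instead captured by follistatin. Both ligand classes signal through type I and type II receptor kinases to Smad2 and Smad3, and in the hair follicle TGF-β2 is known as a signal of the dermal papilla that helps activate the hair germ.

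Promoter sequence is shown for 3 of the genes, as given by RefSeq on GRCm38.p6, each run covering the 250 bases before the transcription start, 5′ to 3′ on the strand of the gene. Tgfb2 was chosen because both KO-labelled libraries lay above both WT libraries in both cell types, Ltbp1 because it had the largest negative fold change of the 10 genes in HFSCs, and Inhba because its window alone held more than 1 Msx core. Capitals mark matches, on either strand, to the homeodomain core TAATTG, the Smad-binding letters CAGAC, the AP-1 element TGACTCA, the cyclic AMP response element TGACGTCA or the TATA box TATAAA. The windows are chr1:186705990-186706239 on the minus strand for Tgfb2, chr17:75005279-75005528 on the plus strand for the more upstream of the 2 starts of Ltbp1, and chr13:16011601-16011850 on the plus strand for Inhba.
Tgfb2: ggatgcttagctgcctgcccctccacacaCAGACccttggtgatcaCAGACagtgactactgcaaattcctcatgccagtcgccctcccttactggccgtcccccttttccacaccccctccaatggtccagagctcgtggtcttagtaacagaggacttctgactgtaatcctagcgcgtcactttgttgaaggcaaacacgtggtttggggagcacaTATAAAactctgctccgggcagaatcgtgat
Ltbp1: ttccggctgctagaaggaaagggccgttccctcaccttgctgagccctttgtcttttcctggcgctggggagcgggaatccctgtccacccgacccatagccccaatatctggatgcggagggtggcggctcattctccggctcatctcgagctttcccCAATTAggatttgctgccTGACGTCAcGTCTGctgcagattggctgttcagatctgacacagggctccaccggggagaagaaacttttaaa
Inhba: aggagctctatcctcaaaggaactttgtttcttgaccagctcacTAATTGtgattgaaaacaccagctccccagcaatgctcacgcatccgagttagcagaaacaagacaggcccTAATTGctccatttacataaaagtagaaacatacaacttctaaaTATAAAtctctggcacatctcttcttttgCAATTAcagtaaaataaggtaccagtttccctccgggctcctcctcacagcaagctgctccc
The Tgfb2 window held CAGAC at 2 places, the nearer 204 bases before the start, and TATAAA 31 bases before it. The Ltbp1 window held TAATTG on the opposite strand 91 bases before the start, TGACGTCA at 73 bases and CAGAC on the opposite strand at 64 bases. The Inhba window held the homeodomain core at 206, 135 and 62 bases before the start and TATAAA at 91 bases. Of 32851 promoter windows of the same length, 7.17% held TAATTG, 42.2% CAGAC, 4.46% TGACTCA, 1.55% TGACGTCA and 12.4% TATAAA on either strand. The matches printed here do not overlap one another. The window of the other Ltbp1 start, chr17:75178531-75178780, held CAGAC on the opposite strand at 148 and 97 bases and none of the other letters. The window of Ltbp3 held CAGAC once, at 58 bases, and those of Tgfb1, Inhbb, Ltbp4 and Fstl1 held none of these letters. Tgfb3 and Fst had no entry. These matches describe letters in a window and say nothing of binding.

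The HFSC libraries held 3132974 to 11016659 estimated counts and the EpdSC libraries, whose deposited values were already normalized, 15213666 to 21092705. Mitochondrial ribosomal RNA took 8.94% and 36.3% of the WT HFSC counts and 49.4% and 53.2% of KO-labelled ones. In EpdSCs it took 23.5% and 16.4% of the WT values and 0.0730% and 6.18% of KO-labelled ones. The KO-labelled HFSC libraries held the most counts in total, and without mitochondrial genes 4786622 and 2614991 against 3870190 and 1852742 in WT. They had at least 1 count in 11409 and 14251 genes, against 22447 and 19595 in WT. Over 14220 genes, their log2 values correlated with each other at r = 0.487, below the 0.559 to 0.579 seen between genotypes and the 0.930 between the WT libraries. The KO-labelled EpdSC libraries had a value of at least 1 in 12723 and 14910 genes, against 15865 and 15816 in WT. Over 14973 genes they correlated at r = 0.829, above the 0.561 to 0.711 between genotypes and below the 0.959 between the WT libraries. Msx2 itself had 53 and 7 counts in WT HFSCs and 40 and 18 in KO-labelled ones, and the insertion is not stated to remove any exon, so these counts do not check the genotype. In EpdSCs Msx2 stood at 58.5 and 85.4 in WT and 150 and 22.2 in the KO-labelled libraries, 1 of which exceeded both WT libraries. By RNAscope, a staining of RNA in tissue sections, the study reported that Msx2-KO mice lacked Msx2 expression. The counts here do not show that absence, and the reason was not tested. Results are therefore also given without single libraries. Cd34 and Itga6, the sort markers, were detected in all HFSC libraries, and Itga6 and Ly6a in all EpdSC libraries. Ly6a of the HFSCs and Cd34 of the EpdSCs were not analysed here.

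In HFSCs, the ligand genes Tgfb2, Tgfb3 and Inhbb had higher counts in both KO-labelled libraries than in either WT library, while Ltbp1, Fst and Fstl1 had lower counts in both. Tgfb1, Inhba, Ltbp3 and Ltbp4 overlapped between the groups. A gene was called when its Benjamini-Hochberg adjusted p was under 0.05 over all 14422 genes tested and its fold change was over 2. By this rule edgeR's quasi-likelihood test called 0 of the 10 genes, all of which passed its filter on low counts, and 0% of all genes. At an unadjusted p under 0.05 it gave 2 of the 10 as higher (Tgfb2 and Tgfb3) against 5.3% of all genes, and 2 as lower (Ltbp1 and Fst) against 12.8%. The smallest adjusted p by edgeR over all genes was 0.143, a tied value shared by Tgfb3, Ltbp1 and Fst. Their unadjusted p by edgeR was 0.0146, 0.000343 and 0.0157, so an equal adjusted p does not mean equal evidence. DESeq2 called 2 of the 10 lower, again Ltbp1 and Fst, and 0 higher, where it called 2.5% of all genes lower and 2.29% higher. Both KO-labelled libraries lay above both WT libraries for 3 of the 10 genes and 17.5% of all genes, and below them for 3 of the 10 and 33.5% of all genes. The median log2 fold change of the 10 genes was 0.07, beside -0.14 for all genes tested.

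**Figure D1:**
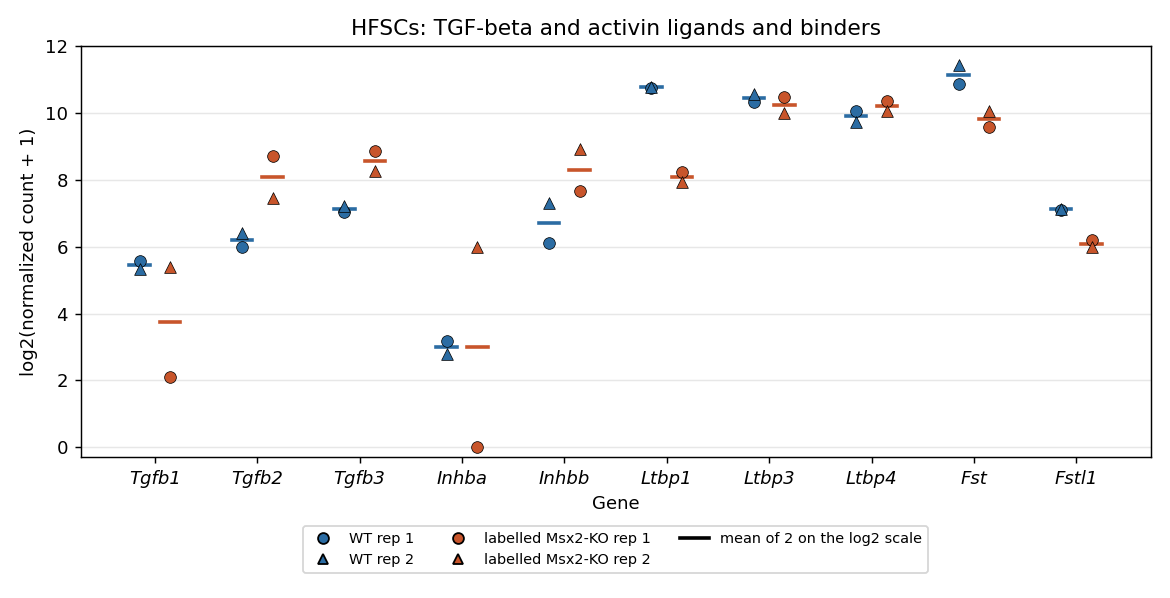
Values of the 10 genes in each HFSC library, as log2(normalized count + 1) on the vertical axis, with circles for replicate 1, triangles for replicate 2, and a line at the mean of the 2 libraries of a group. Ltbp1 separates the groups (1714 and 1753 normalized counts in WT, 302 and 242 in the KO-labelled libraries), while the KO-labelled libraries lie far apart for Tgfb1 and Inhba.

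Among the TGF-β ligands, Tgfb2 (1:186622792-186705989, minus strand, GRCm38, as are the positions that follow), which encodes TGF-β2, had 62.7 and 84.8 normalized counts in WT HFSCs and 417 and 175 in KO-labelled ones. Both KO-labelled libraries were above both WT libraries, although they differed from each other by more than the WT libraries did. Group means were 73.8 ± 15.6 (SD, n = 2) and 296 ± 171 (SD, n = 2), 4.01-fold apart. On the log2 scale the change was 2.01 (SE 0.60), with an adjusted p of 0.188 by edgeR and 0.127 by DESeq2. The raw counts behind these values were 77 and 43 in WT and 628 and 135 in the KO-labelled libraries.

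Tgfb3 (12:86056745-86079041, minus strand), which encodes TGF-β3, had 130 and 148 normalized counts in WT and 459 and 306 in the KO-labelled libraries. The groups did not overlap, and each stayed closer together than for Tgfb2. The means were 2.75-fold apart, with a log2 change of 1.46 (SE 0.36) and an adjusted p of 0.143 by edgeR. Tgfb3 shares 257 bp of exon with the opposite-strand gene Gm48008 and 163 bp with Gm37804, Tgfb2 shares 124 bp with Gm29491, and whether strand was used in the counting is not stated.

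Tgfb1 (7:25687002-25705077, plus strand), the gene of TGF-β1, was low in all 4 HFSC libraries. It had 46.4 and 39.4 normalized counts in WT and 3.32 and 41.4 in the KO-labelled libraries. Replicate 2 of the latter lay between the WT libraries, and replicate 1, which had 5 raw counts, lay far below them. The log2 change was -0.95 (SE 1.57) with an adjusted p of 0.882 by edgeR. A direction for Tgfb1 therefore rested on a single library.

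The activin subunit genes differed in how far their libraries agreed. Inhbb (1:119415465-119422248, minus strand), which encodes the inhibin βB subunit, had 68.4 and 156 normalized counts in WT and 203 and 484 in the KO-labelled libraries. Those ranges did not overlap, and the spread within each group exceeded 2-fold. The log2 change was 1.62 (SE 0.68) with an adjusted p of 0.345 by edgeR. Inhba (13:16011851-16031621, plus strand), encoding the inhibin βA subunit, had 10 and 3 raw counts in WT and 0 and 48 in the KO-labelled libraries. Its groups overlapped, and the log2 change of 2.11 (SE 2.59, adjusted p 0.825 by edgeR) turned to -0.68 when the replicate number was a block.

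Of the 3 LTBP genes followed, only Ltbp1 (17:75005568-75392512, plus strand), whose product carries latent TGF-β into the matrix, separated the HFSC groups. Its normalized counts were 1714 and 1753 in WT and 302 and 242 in the KO-labelled libraries. The WT libraries were nearly equal and both others lay far below. The means were 1734 ± 27.5 (SD, n = 2) and 272 ± 42.6 (SD, n = 2), or 6.37-fold lower in the KO-labelled libraries. The log2 change was -2.67 (SE 0.25), with an adjusted p of 0.143 by edgeR and 2.58e-09 by DESeq2. With any single library left out, the log2 change of Ltbp1 by edgeR was -2.87 to -2.53.

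Ltbp3 (19:5740904-5758532, plus strand) and Ltbp4 (7:27305136-27337692, minus strand), the other LTBP genes followed here, did not separate the groups. Ltbp3 had 1271 and 1505 normalized counts in WT and 1424 and 1027 in the KO-labelled libraries, with a log2 change of -0.18 (SE 0.28, adjusted p 0.873 by edgeR). Ltbp4 had 1060 and 850 in WT and 1319 and 1053 in the others, with a log2 change of 0.31 (SE 0.26, adjusted p 0.688 by edgeR) that became -0.57 under scaling by library totals, a setting that moved the median of all genes from -0.14 to -1.002.

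The antagonist gene Fst (13:114452290-114458951, minus strand), encoding follistatin, which binds activins and blocks their receptor contact, had 1850 and 2757 normalized counts in WT and 770 and 1067 in the KO-labelled libraries. Both of the latter lay below both WT libraries. The means were 2304 ± 641 (SD, n = 2) and 918 ± 210 (SD, n = 2), a 2.51-fold difference. Its log2 change was -1.33 (SE 0.34), with an adjusted p of 0.143 by edgeR and 0.0386 by DESeq2. Fst shares 115 bp of exon with the antisense gene Gm47040.

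Fstl1 (16:37776873-37836514, plus strand), a secreted glycoprotein of the follistatin family, had 137 and 138 normalized counts in WT and 71.8 and 62.2 in the KO-labelled libraries. These ranges did not overlap either. The log2 change was -1.04 (SE 0.54) with an adjusted p of 0.464 by edgeR.

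The HFSC fold changes depended on which libraries entered. Without replicate 1 of the KO-labelled libraries, the log2 change was 1.24 for Tgfb2, 1.12 for Tgfb3, 3.04 for Inhba and 2.14 for Inhbb. It was -0.086 for Tgfb1, -2.87 for Ltbp1, -1.14 for Fst and -1.17 for Fstl1. Without replicate 2 it was 2.52 for Tgfb2, 1.72 for Tgfb3 and 0.90 for Inhbb. It was then -3.66 for Tgfb1, -2.53 for Ltbp1, -1.59 for Fst and -0.94 for Fstl1. In these fits the lone library is assumed to vary like the WT pair, so only effect sizes are given. Without WT replicate 1 or 2, Ltbp1 stood at -2.71 and -2.75. Ltbp1 was thus lower, and Tgfb2 and Tgfb3 higher, with either KO-labelled library alone.

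Markers of other cells moved with the HFSC groups as well, in CPM (each gene's share of a library's counts over the nuclear genes found in both tables). Summed levels of 7 suprabasal genes were 342 and 342 CPM in WT and 1460 and 5245 in the KO-labelled libraries, with 5 genes higher in both, and those of 4 sebaceous genes 152 and 158 against 2500 and 1892. The 5 cycling genes summed to 84.7 and 87.2 CPM in WT and 1007 and 684 in the others, and the 10 bulge and germ genes to 26350 and 21351 against 12345 and 12453. Of the 5 cycling genes, 4 lay above WT in both KO-labelled libraries. Mki67 made up most of the cycling sum, at 50.7 and 67.2 CPM in WT and 816 and 435 in the others. The 4 fibroblast genes in the table, Col1a1, Col1a2, Pdgfra and Thy1, summed to 97.4 and 112 CPM in WT and 57.0 and 22.7 in the others. Col1a1, Col1a2 and Pdgfra were lower in both KO-labelled libraries, Pdgfra going from 6.67 and 1.67 CPM to 0 in both. Thy1 overlapped, at 1.87 and 2.22 CPM in WT and 4.45 and 0 in the others. The part of the marked cells in the values of the 10 genes was not tested. In bulk samples, fewer cells of a type and less RNA per cell cannot be told apart.

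In EpdSCs, Tgfb2 was again above both WT values in both KO-labelled libraries, and all 3 LTBP genes, Inhba and Fst were below. Tgfb1, Tgfb3 and Inhbb overlapped. On the deposited normalized values, limma on log2(value + 1) called 0 of the 9 genes by the same rule, where it called 1.57% of 16231 genes higher and 7.78% lower. At an unadjusted p under 0.05 it gave 0 of the 9 as higher, against 12.2% of all genes, and 3 as lower (Inhba, Ltbp3 and Ltbp4), against 23.1%. Both KO-labelled libraries lay above both WT libraries for 1 of the 9 genes and 27.8% of all genes, and below them for 5 of the 9 and 44.5% of all genes. The median log2 fold change was -1.44 for the 9 genes and -0.64 for all genes. No count model was run, since the deposited values were not raw counts.

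**Figure D2:**
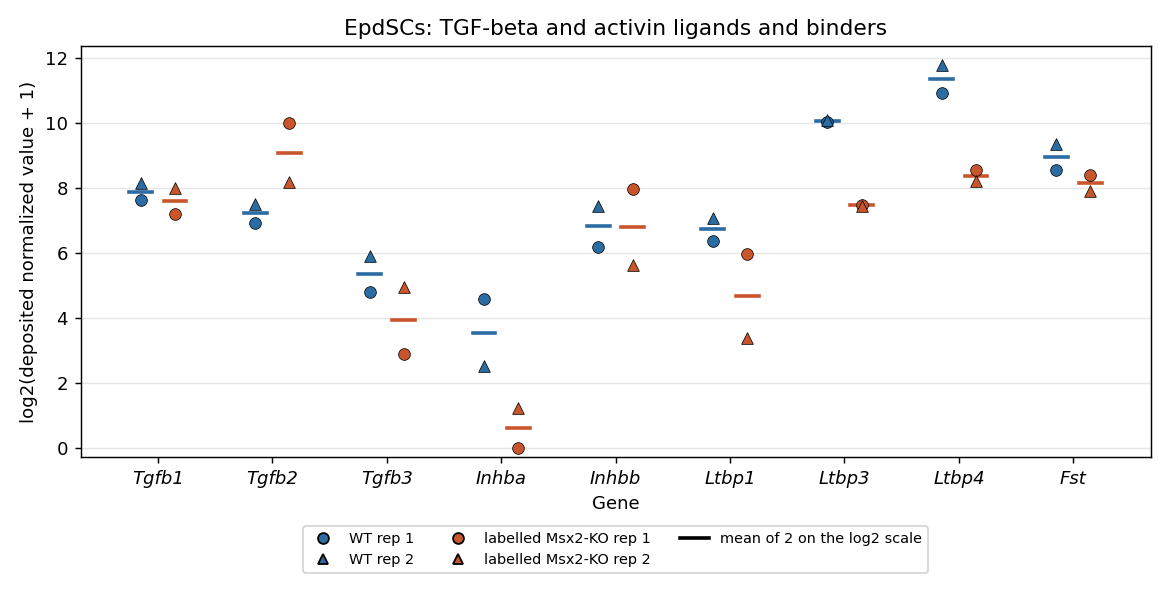
Values of the 9 genes in each EpdSC library, as log2(deposited normalized value + 1) on the vertical axis, with circles for replicate 1, triangles for replicate 2, and a line at the mean of the 2 libraries of a group. Ltbp3 and Ltbp4 lie at 1046 to 3559 in WT and 176 to 377 in the KO-labelled libraries, and Tgfb2 lies higher in the latter.

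For Tgfb2, the deposited values were 121 and 182 in WT EpdSCs and 1040 and 288 in KO-labelled ones. Neither of the latter overlapped WT, but replicate 1 carried most of the difference. The means were 152 ± 43.0 (SD, n = 2) and 664 ± 532 (SD, n = 2), 4.38-fold apart, with a log2 change of 1.88 (SE 0.84) and an adjusted p of 0.196 by limma. Without replicate 1 of the KO-labelled libraries the log2 change of Tgfb2 was 0.95, and without replicate 2 it was 2.80.

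Tgfb1 and Tgfb3 did not separate the EpdSC groups. Tgfb1 stood at 197 and 286 in WT and 148 and 257 in the KO-labelled libraries, with a log2 change of -0.29 (SE 0.57, adjusted p 0.732 by limma). Tgfb3 stood at 27.1 and 59.8 against 6.37 and 30.3, with a log2 change of -1.44 (SE 0.97, adjusted p 0.332 by limma). The direction that both KO-labelled libraries showed for Tgfb3 in HFSCs was thus not seen in EpdSCs, although the difference between cell types was not tested.

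Of the activin subunits, Inhba had values of 22.7 and 4.74 in WT EpdSCs and 0 and 1.35 in KO-labelled ones. In whole counts that was 26 against 2 over the 2 libraries, a ratio of 14.9 with an exact 95% counting interval of 3.73 to 130. The fitted log2 change, which depends on the pseudocount at such levels, was -2.93 (SE 0.98, adjusted p 0.131 by limma), with -1.04 to -4.79 over the other settings and -1.91 (without WT replicate 1) to -3.95 (without WT replicate 2) with 1 library left out. Inhbb stood at 72.6 and 175 in WT and 252 and 48.5 in the others, an overlap in both directions, with a log2 change of -0.02 (SE 1.07, adjusted p 0.991 by limma).

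The LTBP genes were lower in both KO-labelled EpdSC libraries. Ltbp3 stood at 1046 and 1106 in WT EpdSCs and 179 and 176 in KO-labelled ones, and Ltbp4 at 1963 and 3559 against 377 and 296. For both, every KO-labelled library lay far below every WT library. The Ltbp3 means were 6.06-fold apart, with a log2 change of -2.59 (SE 0.46) and an adjusted p of 0.0538 by limma, and the Ltbp4 means 8.21-fold apart, with a log2 change of -2.98 (SE 0.57) and an adjusted p of 0.0598 by limma. Both genes missed the 0.05 threshold, and both passed it with a pseudocount of 10 (adjusted p 0.0402 and 0.0427) or a trended prior spread (0.0365 and 0.0367). Under those settings limma called 1354 and 1448 of 16231 genes lower. Ltbp1, lower by 3.03-fold, stood at 82.3 and 136 in WT and 62.4 and 9.44 in the others, with a log2 change of -2.05 (SE 1.08, adjusted p 0.243 by limma).

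Leaving out KO-labelled libraries moved some of these fold changes. Such fits leave 1 library in that group, so only effect sizes are given for them here. Without replicate 1, the log2 change was -3.35 for Ltbp1, -2.61 for Ltbp3 and -3.15 for Ltbp4. Without replicate 2, it was -2.58 for Ltbp3 and -2.81 for Ltbp4. Ltbp1 stood at -0.75 without replicate 2, so that its size rested largely on that library. Without either WT library, limma called none of the 9, with an adjusted p of at least 0.335 for Ltbp4 and 0.343 for Ltbp3. Fst, at 380 and 662 in WT and 337 and 240 in the KO-labelled libraries, had a log2 change of -0.82 (SE 0.57, adjusted p 0.347 by limma), 1.81-fold lower.

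EpdSC markers moved too. The 7 suprabasal genes summed to 22270 and 16157 CPM in WT and 1828 and 5555 in the KO-labelled libraries, with 5 lower in both, and the 6 immune genes to 46.7 and 4.36 against 0.982 and 0.622. Of the 8 fibroblast markers only Thy1 was in the table, at 57.6 and 15.8 CPM in WT and 96.5 and 78.3 in the others. The 6 interfollicular basal genes summed to 16301 and 19716 CPM in WT and 27691 and 35211 in the KO-labelled libraries, the 9 bulge and germ genes in the table to 11351 and 14037 against 14521 and 22805, and the 4 sebaceous genes to 555 and 608 against 1088 and 848. The genes within these sums did not all move together. In both KO-labelled libraries, 4 of the 6 basal genes lay above WT and 1 below. Of the 9 bulge and germ genes, 4 lay above and 0 below. Of the 4 sebaceous genes, 2 lay above and 2 below. The 5 cycling genes summed to 283 and 234 CPM in WT and 203 and 167 in the KO-labelled libraries. Of these 5, 3 lay above WT and 1 below in both KO-labelled libraries. The part of these cells in the values of the 9 ligand and binder genes was not tested.

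**Figure D3:**
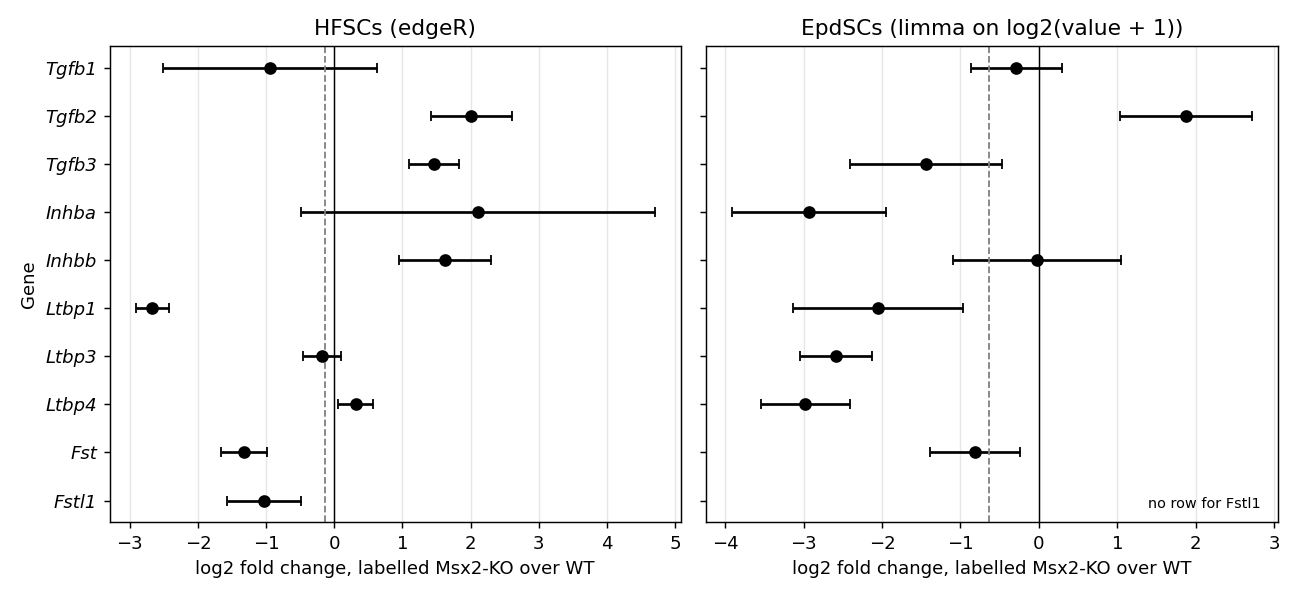
Log2 fold changes of the 10 genes in HFSCs (left, edgeR) and 9 in EpdSCs (right, limma), KO-labelled libraries over WT, with bars of 1 SE, a solid line at 0 and a dashed line at the median of all genes tested (-0.14 and -0.64). Tgfb2 lies right of both lines in both cell types (2.01 and 1.88), and Ltbp1 lies to the left in both (-2.67 and -2.05).

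Levels are compared between genes as CPM divided by kilobases of exon. The tables were normalized separately and no test crosses them, so levels in the 2 cell types stand beside each other as a description. In WT HFSCs, Fst was the most abundant at 151 ± 26.1 (SD, n = 2), followed by Ltbp1 at 49.4 ± 4.53, Ltbp3 at 46.3 ± 0.554 and Ltbp4 at 45.4 ± 11.8, whose ranges overlap. Tgfb3 (12.5 ± 0.262), Fstl1 (8.52 ± 0.862) and Inhbb (7.79 ± 3.56) came next, the last pair overlapping, ahead of Tgfb2 at 3.84 ± 0.405, Tgfb1 at 2.61 ± 0.577 and Inhba at 0.339 ± 0.111.

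In the KO-labelled HFSC libraries, Fst remained first at 61.8 ± 11.8 (SD, n = 2), its range overlapping that of Ltbp4 at 57.1 ± 11.2. From Ltbp4 down through Ltbp3 (42.1 ± 11.2), Tgfb3 (35.3 ± 11.3), Inhbb (24.8 ± 13.5) and Tgfb2 (16.0 ± 9.80), each gene overlapped the next. Ltbp1, second in WT, stood at 7.93 ± 1.54, with no overlap with Tgfb2 above it. Fstl1 (4.24 ± 0.592), Inhba (1.47 ± 2.08) and Tgfb1 (1.35 ± 1.61) closed the order.

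WT EpdSCs had a different order, led by Ltbp4 at 35.4 ± 14.9 (SD, n = 2). Ltbp3 (9.81 ± 0.524) and Fst (9.41 ± 3.72) overlapped, as did Tgfb1 (3.97 ± 1.09), Inhbb (2.41 ± 1.43) and Tgfb2 (2.17 ± 0.645) in turn, and Tgfb3 (1.07 ± 0.580), Ltbp1 (0.845 ± 0.304) and Inhba (0.177 ± 0.162) followed. In the KO-labelled EpdSC libraries, Tgfb2 came first at 5.76 ± 2.73 (SD, n = 2), overlapping Fst at 3.59 ± 0.616, Ltbp4 at 3.01 ± 0.723, Tgfb1 at 2.59 ± 1.88 and Inhbb at 1.71 ± 1.17 in a chain down to Ltbp3 at 1.17 ± 0.454. Tgfb3 (0.385 ± 0.431), Ltbp1 (0.159 ± 0.129) and Inhba (0.00811 ± 0.0115) were the lowest.

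**Figure D4:**
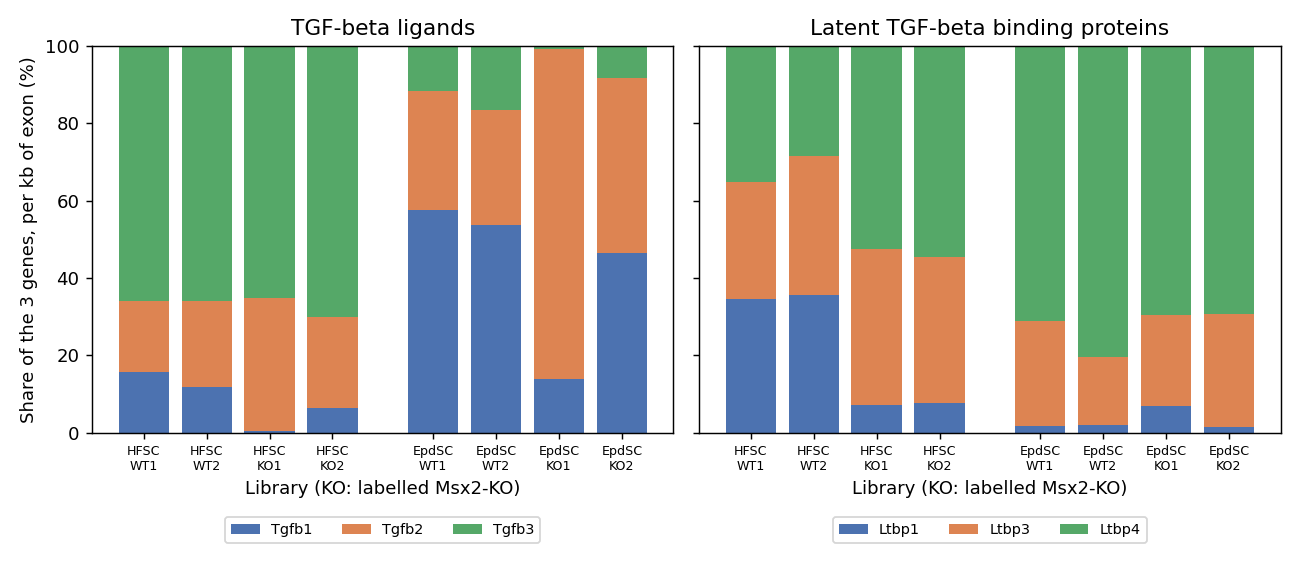
Share of each gene in the summed level of its family, per kilobase of exon, in percent, for the 3 TGF-β ligand genes (left) and 3 LTBP genes (right) in each library, with KO standing for labelled Msx2-KO. Tgfb3 makes up most of the ligand in every HFSC library, and the Ltbp1 share in HFSCs is 34.5% and 35.5% in WT and 7.26% and 7.58% in the KO-labelled libraries.

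Shares within a library do not depend on how libraries were scaled. Of the 3 TGF-β ligand transcripts in HFSCs, Tgfb3 made up 65.8% and 66.0% in WT and 65.1% and 70.2% in the KO-labelled libraries, and Tgfb2 18.5% and 22.2% against 34.6% and 23.4%. In EpdSCs, Tgfb1 led in WT at 57.5% and 53.6%, and in the KO-labelled libraries it held 13.9% and 46.4%, while Tgfb2 went from 30.8% and 29.7% to 85.2% and 45.4%. The share of Ltbp1 among the 3 LTBP genes in HFSCs was 34.5% and 35.5% in WT and 7.26% and 7.58% in the KO-labelled libraries, while Ltbp4 held 52.4% and 54.5% against 35.3% and 28.5% in WT. In EpdSCs, where Ltbp1 was a minor member at 1.34% to 6.95%, Ltbp4 held 69.3% to 80.4% in every library.

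Ratios across families followed. The 3 ligand genes summed to 0.126 and 0.143 of the 3 LTBP genes in WT HFSCs and to 0.535 and 0.431 in KO-labelled ones. In EpdSCs the same ratio was 0.159 and 0.155 in WT and 2.51 and 1.66 in the others, and for Tgfb2 alone it went from 0.0491 and 0.0459 to 2.14 and 0.754. None of these ranges overlapped between the groups of a cell type. Fst over the sum of Inhba and Inhbb was 23.2 and 16.0 in WT HFSCs and 3.51 and 1.88 in KO-labelled ones, but in EpdSCs it was 4.02 and 3.45 against 1.24 and 4.50, which overlapped.

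The rest of the pathway was read from 5 lists of other genes. Beside their counts stand the shares of all genes at an unadjusted p under 0.05. These were 5.3% higher and 12.8% lower in HFSCs by edgeR, and 12.2% and 23.1% in EpdSCs by limma. The shares called were 0% in HFSCs, and 1.57% higher and 7.78% lower in EpdSCs. Among receptors and co-receptors, edgeR called 0 of 10 tested in HFSCs, with 1 higher and 2 lower at an unadjusted p under 0.05 and a median log2 change of -0.25 beside -0.14 for all genes. The type II receptor gene Tgfbr2 had 89.6 and 82.8 normalized counts in WT HFSCs and 172 and 246 in KO-labelled ones (log2 1.27, adjusted p 0.259 by edgeR), and the type I receptor gene Tgfbr1 had 144 and 146 against 11.3 and 27.2 (log2 -2.92, adjusted p 0.171 by edgeR). Acvr1, an activin and BMP type I receptor gene, had 85.5 and 92.7 against 0 and 24.6. The activin type II receptor gene Acvr2b had 78 and 40 raw counts in WT and 0 in both others, which is at least 24.2-fold lower against a floor of 3 counts in each library. In EpdSCs limma called 0 of 9 receptors, with 1 higher and 2 lower at an unadjusted p under 0.05 and a median of 0.29 beside -0.64, and Tgfbr2 stood at 1135 and 1441 in WT and 3564 and 2728 in the KO-labelled libraries (log2 1.29, adjusted p 0.161 by limma). Acvrl1 (log2 -3.01), Tgfbr3l (-4.36) and Acvr2b (-4.14) were lower in both of those libraries, and Acvr1 (1.82) and Tgfbr1 (1.45) higher.

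Among Smads and their regulators, 0 of 18 genes were called in HFSCs (0 higher and 2 lower at an unadjusted p under 0.05, median -0.44 beside -0.14). Zfyve9, the anchor that presents Smads to the receptor, had 564 and 665 normalized counts in WT and 250 and 233 in the KO-labelled libraries (log2 -1.35, adjusted p 0.143 by edgeR). Bambi, a decoy receptor gene, had 29 raw counts in each WT library and 0 in both others, at least 13.7-fold lower. Smurf1 stood at -2.62 on the log2 scale, Ldlrad4 at 2.99 and Smad6 at 0.91. In EpdSCs, 1 of 17 genes was called higher and 0 lower, beside 1.57% and 7.78% of all genes. At an unadjusted p under 0.05, limma gave 4 higher and 3 lower, with a median of -0.79 beside -0.64. The called gene was Smad4, the common partner of the receptor Smads, at 759 and 769 in WT and 6526 and 13302 in the KO-labelled libraries (log2 3.61, SE 0.59, adjusted p 0.0480 by limma). Without either WT library limma called 0 genes higher, Smad4 included. Ppm1a (log2 2.30) and Pmepa1 (1.91) were higher and Zfyve9 (-1.95), Usp15 (-2.33) and Tgif2 (-4.00) lower in both of those libraries, none of them called.

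Genes of latency, matrix storage and activation gave 0 of 18 calls in HFSCs, with 0 higher and 3 lower at an unadjusted p under 0.05 and a median of -0.62 beside -0.14. Ltbp2, an LTBP family member that does not bind latent TGF-β, had 2371 and 2680 normalized counts in WT and 989 and 523 in the KO-labelled libraries (log2 -1.74, adjusted p 0.143 by edgeR), and is a gene that the study itself picked out from data that include these libraries. Thbs1, which encodes the TGF-β activator thrombospondin 1, stood at -0.80 and Fbn2 at 1.70. Adamts10 had 261 counts over the WT libraries and 2 over the others, a ratio of 171 with an exact 95% counting interval of 46.9 to 1422. In EpdSCs limma called 0 of 19, with 3 higher and 2 lower at an unadjusted p under 0.05 and a median of 0.27 beside -0.64. Integrin genes whose products release TGF-β lay on both sides there, Itgb6 standing at 123 and 123 in WT and 401 and 408 in the KO-labelled libraries (log2 1.70) and Itgb8 at 61.7 and 178 against 11.5 and 13.5 (log2 -2.98). Mmp2 (2.72) and Itgb5 (2.82) were higher and Lrrc32 (-3.85) and Bmp1 (-1.67) lower in both.

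Of the other activin and nodal branch ligands and secreted binders, 0 of 9 were called in HFSCs and 0 of 11 in EpdSCs. At an unadjusted p under 0.05 edgeR gave 1 higher and 3 lower in HFSCs (median -0.62 beside -0.14), and limma 0 higher and 2 lower in EpdSCs (median -0.20 beside -0.64). The TGF-β binding proteoglycan genes lay on both sides in HFSCs, with Aspn at 219.1 and 256 normalized counts in WT and 35.2 and 23.3 in the KO-labelled libraries (log2 -3.01, adjusted p 0.143 by edgeR) and Bgn at 25.2 and 21.7 against 94.4 and 232 (log2 2.78, adjusted p 0.169 by edgeR). Cd109, a TGF-β co-receptor gene, stood at -0.84 in HFSCs and 0.84 in EpdSCs. Inha (-3.71) and Wfikkn1 (-3.91) were lower and Lefty1 (1.06) higher in both KO-labelled EpdSC libraries.

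Among transcripts commonly used as TGF-β targets, 0 of 21 were called in HFSCs, with 1 higher and 3 lower at an unadjusted p under 0.05 and a median of -0.80 beside -0.14. Tgfbi had 3033 and 3053 normalized counts in WT and 1569 and 1488 in the KO-labelled libraries (log2 -0.99, adjusted p 0.143 by edgeR), and Snai2 had 279 and 193 against 782 and 558 (log2 1.50, adjusted p 0.143 by edgeR). Tsc22d1 stood at 0.97 and Bhlhe40 at 1.05, and Ltbp2 and Thbs1, described above, were also on this list. In EpdSCs 0 of 23 were called, with 4 higher and 2 lower at an unadjusted p under 0.05 and a median of -0.18 beside -0.64. Bhlhe40 (2.19), Pmepa1 (1.91) and Junb (2.97) were higher and Ccn2 (-3.39), Itga5 (-4.21) and Col7a1 (-5.54) lower in both KO-labelled libraries.

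DESeq2 called 0 genes of these 5 lists higher in HFSCs, where it called 2.29% of all genes higher and 2.5% lower. It called 1 receptor gene (Acvr2b), 2 genes of latency and activation (Ltbp2 and Adamts10), 1 secreted binder (Aspn) and 2 target genes (Ltbp2 again and Ccn1, which encodes a matricellular protein and is named after its value was seen) lower, and 0 of the Smads and their regulators. The HFSC list medians are the same with Acvr2b, Bambi and Lefty1, which had 0 counts in both KO-labelled libraries, set at their bounds.

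By Pearson correlation of log2(CPM + 1) over all 8 libraries, among 5893 genes with a mean of at least 20 CPM in both tables, the genes nearest in pattern to Tgfb2 were Dcaf4 (r = 0.959), Atp2a2 (0.948) and Rbm12 (0.936). The 8 points share 2 cell types, 2 genotypes and 2 separately normalized tables, so these values describe likeness only.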

How the data were processed

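Groups, ages and replicate numbers were taken from the sample labels, and 0 columns of per-sample values were left unmapped. The authors made SMARTer stranded total RNA libraries, aligned them with STAR 2.7.3a in Partek Flow to GRCm38/mm10 and counted GENCODE genes; use of strand is not stated. For HFSCs the authors deposited estimated counts without normalization. For EpdSCs they deposited a normalized signal, estimated counts divided by 1 factor per library (a single count being worth 1.08, 0.948, 1.27 and 0.674), after a filter on low genes by a rule not stated. Their genotype comparisons (p-values and fold changes) were not used.

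The quasi-likelihood test of edgeR 4.0.16, with TMM factors, was run on rounded HFSC counts passing filterByExpr, which are shown per 6101083 counts. For EpdSC values the log2(value + 1) scale was used in limma 3.58.1, so a fold change of low genes is understated. DESeq2 1.42.0 was an alternative for HFSCs. R 4.3.3, Python 3.11.15, pandas 2.3.3 and matplotlib 3.10.9 were used. Both fits were tried on simulated data with less spread than the HFSC libraries, whose common dispersion by edgeR was 0.823. That trial does not check the HFSC fit at its own spread. Exact permutation of 2 against 2 libraries cannot go below p = 0.333 (two-sided), so no such test is given. Exon lengths and positions came from GENCODE M21 and promoters from RefSeq. Counting intervals and floors cover counting error only. Members, lists and tests were chosen with earlier results of these data known. Beside the 10 genes, Msx2 and the sort markers, the genes named from each list were those called and up to 3 per direction with the smallest p among genes whose groups did not overlap and whose mean was at least 20. Replicate numbers did not pair the libraries. An exon overlap of a further member is not reported here.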

Additional observations from a re-analysis of the deposited data

Results flagged for a closer look

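Genes listed here had both libraries labelled Msx2-KO on one side of both WT libraries in HFSCs and on the other side in EpdSCs. None of the 10 ligand and binder genes was among them. The search covered those 10 and the genes named from the lists, which were kept because their groups did not overlap. In HFSCs, both KO-labelled libraries lay above WT for 17.5% of all genes and below for 33.5%. In EpdSCs the shares were 27.8% and 44.5%. The share of all genes with opposite sides was not computed. The difference between cell types was not tested, because the tables were normalized separately. Of the changes below, only that of Smad4 in EpdSCs was called. The log2 fold changes, HFSCs first and EpdSCs second, were -2.87 and 1.82 for the receptor gene Acvr1, and -2.92 and 1.45 for Tgfbr1. Acvr1 had an adjusted p of 0.664 by edgeR in HFSCs, and Tgfbr1 had 0.291 by limma in EpdSCs. Smad4 stood at -1.04 and 3.61, and the Smad phosphatase gene Ppm1a at -0.39 and 2.30. Ldlrad4 was higher in HFSCs (2.99) and lower in EpdSCs (-1.10), as was Bgn (2.78 and -2.37). The activation genes Itgb6 and Mmp2 stood at -1.35 and 1.70 and at -2.26 and 2.72. Cd109 stood at -0.84 and 0.84. Lefty1, an antagonist of nodal, had no counts in the HFSC libraries labelled Msx2-KO, which bounds its log2 change at -3.20 or lower against a floor of 3 counts in each library, and stood at 1.06 in EpdSCs.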

How the results depend on the processing

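Member directions held under most settings tried. In HFSCs, against 0 genes called in either direction, DESeq2 called 330 higher and 360 lower, library totals 16 and 35, the replicate block 145 and 86, and a minimum of 10 counts in every library 2 higher. Leaving out 1 library gave 90 to 2711 genes higher and 35 to 6561 lower, and 0 to 4 of the members higher and 1 to 3 lower. Of the members, DESeq2 called 2 lower, and library totals and the replicate block 1 each. In EpdSCs, against 255 higher, a pseudocount of 0.1 gave 162, a pseudocount of 10 gave 619 and a trended prior 684. Leaving out 1 library gave 0 to 3745 genes higher and 0 to 6631 lower, and 0 to 1 members higher and 0 to 2 lower. A pseudocount of 10 and the trended prior called 2 members lower, among 1354 and 1448 genes lower in all, against 1263 in the main fit. The replicate block changed no EpdSC member call; replicate numbers did not pair the libraries (correlation of deviations -0.050 and -0.038, 2 pairs).

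Direction reversed for HFSC Inhba with the replicate block (-0.68), Ltbp4 with library totals (-0.57) and Ltbp3 with 1 library left out (-0.46 to 0.030), and for EpdSC Tgfb1 (-0.68 to 0.11) and Inhbb (-1.20 to 1.16) with 1 library left out. Inhbb was 0.0050 with a pseudocount of 10. The causes were not tested. With all genes in the denominator, 36 of 38 ranks by level held. In HFSCs, 8 members remained tested with 10 counts in every library. Low counts limit Tgfb1 and Inhba, at 57 or fewer per HFSC library.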
